A study of Homo sapiens with 9 samples.

Results

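GDF15 and a set of textbook target genes of the tumour suppressor p53 were followed across the 9 arrays of the series, to see whether GDF15 stood higher with or without the other p53 targets after transfection of a microRNA. The set has 9 genes: GDF15, CDKN1A, MDM2, FAS, TP53I3, RRM2B, ZMAT3, FDXR and GADD45A. Of these, 3 have a probeset named in the platform's annotation table, GDF15, TP53I3 and RRM2B, each with 1 probeset, among 14884 genes with a named probeset in all. The other 6 were not analysed here. The set was chosen by GDF15's higher log2 intensity in the mimic arrays than in the negative control arrays, so GDF15's own differences are given as a description, with no test.

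The cells were ZR-75-1, a breast cancer line that carries the estrogen receptor, and all 9 cultures received the lipid reagent Lipofectamine RNAiMAX. One group of 3 received no RNA with it (mock), one of 3 received 50 nM of a non-specific negative control RNA, and one of 3 received 50 nM of a mimic of mature miR-150-5p. Total RNA was taken at 48 h and hybridised to Affymetrix Human Gene 2.0 ST arrays, 1 array per sample. Per the labels the total RNA was labelled with a FlashTag biotin kit, and how that labelling bears on the mRNA intensities is not known here. The labels number the replicates but do not say that they were separate experiments, so the p-values reflect sample-to-sample spread only, and that spread may be technical. The mimic is a transient excess of 1 microRNA in 1 cell line, and in RNA from whole cultures fewer expressing cells cannot be told apart from less RNA per cell.

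The transcription factor p53 is held at low level in unstressed cells by the ubiquitin ligase MDM2, itself a p53 target, and is freed by DNA damage and other stresses. It then raises a shared set of genes that arrest the cell cycle (CDKN1A, which encodes p21), repair DNA (RRM2B, the p53-inducible small subunit of ribonucleotide reductase), change redox balance (TP53I3, a quinone oxidoreductase) or prime cell death (FAS, a death receptor). GDF15 encodes a secreted cytokine of the TGF-beta superfamily that signals through GFRAL and RET. It is a known p53 target, and it is also raised by ATF4 and CHOP in the integrated stress response, the pathway that senses lack of amino acids and unfolded protein.

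The stretches just before the annotated starts of the genes with values were searched for sites of both pathways. Those of GDF15 and TP53I3 are shown, to set GDF15 beside another p53 target with a value on these arrays. They are the 250 bases before the RefSeq start in GRCh38.p14, read 5′ to 3′ on the gene's own strand, and come from the reference and not from the arrays. Capitals mark the TATA box letters TATAAA and the GC box letters GGGCGG, found on either strand. GDF15 lies on chromosome 19 (plus strand, window chr19:18385908-18386157) and TP53I3 on chromosome 2 (minus strand, window chr2:24084835-24085084).
GDF15: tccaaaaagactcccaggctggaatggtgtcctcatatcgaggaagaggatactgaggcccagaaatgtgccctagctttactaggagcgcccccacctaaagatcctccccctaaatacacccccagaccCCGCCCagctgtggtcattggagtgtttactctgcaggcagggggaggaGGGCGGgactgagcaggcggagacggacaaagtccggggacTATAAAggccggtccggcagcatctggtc
TP53I3: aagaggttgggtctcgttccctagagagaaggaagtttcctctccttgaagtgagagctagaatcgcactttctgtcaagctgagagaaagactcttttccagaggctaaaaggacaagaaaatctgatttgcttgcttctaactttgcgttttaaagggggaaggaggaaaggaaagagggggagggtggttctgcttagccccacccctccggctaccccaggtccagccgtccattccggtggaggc

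The GDF15 window holds TATAAA starting 29 bases before the start and a GC box on each strand, starting 70 and 119 bases before it. The TP53I3 window holds neither. Neither window holds a match to the p53 half-site consensus, which 5.57% of all 35116 windows of this length and 6.80% of all genes with a window hold, and which 6 of the 30 genes with a window among the other p53 targets hold (AEN, GPX1, PCNA, PLK2, RPS27L and SESN1). Neither holds TGATGNAAN on either strand, letters of the element that binds C/EBP and ATF factors, which 3.13% of all windows hold. TATAAA is in 10.7% of all windows and GGGCGG in 42.6%. A match is a run of letters only, and its absence from these bases says nothing about binding elsewhere. The C/EBP and ATF letters are shown in capitals where they were found before ASNS, asparagine synthetase, a classical ATF4 target described further on (chr7:97872453-97872491, minus strand, the match starting 68 bases before the start).
ASNS: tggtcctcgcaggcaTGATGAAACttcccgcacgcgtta

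Values are log2 intensities as the authors deposited them, so that a difference of 1 is a doubling. The median of an array was 4.22 to 4.27. Across the series limma called 82 of 14884 genes (0.551%) for mimic minus negative control, 45 (0.302%) for mimic minus mock and 0 (0%) for negative control minus mock, where 622 genes had an unadjusted p under the 0.05 threshold. A call here means an adjusted p under that threshold over all genes tested. The luminal label was checked on 8 of 9 listed markers, whose mean levels ran from 6.95 to 12.1 (KRT18 and KRT19, luminal keratins, at 12.1 and 11.2, and ESR1, the estrogen receptor, at 8.57 in mock). The 11 of 23 markers of basal, fibroblast, leukocyte and endothelial cells with a value lay between 2.39 and 6.42, below 5.44, the median of all genes, except CD68, with KRT14 at 4.52, MYLK at 4.36, VIM at 5.09, DCN at 2.39, CD14 at 3.33, VWF at 3.54 and KDR at 3.35. Their mean per array was 3.75 to 3.89 in mock, 3.71 to 3.78 in negative control and 3.76 to 3.89 in mimic arrays. ESR1 was called in both mimic comparisons (0.46 ± 0.07, SE, with an adjusted p = 0.0295, and 0.45 ± 0.07 with an adjusted p = 0.0406), and passed in 7 and 4 of the 18 alternatives. PECAM1, an endothelial marker, and LYZ, a leukocyte marker, lay above all 6 control arrays at levels of 2.84 and 3.18; their part in the results was not tested.

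GDF15 stood higher in every mimic array than in any control array. Its log2 intensity was 8.11, 7.86 and 7.81 in mimic replicates 1, 2 and 3. In the negative control it was 7.22, 6.95 and 7.22, and in mock 7.46, 7.63 and 7.24. The 3 groups did not overlap, with the mimic arrays highest and the negative control arrays lowest, although the lowest mock array (7.24) and the highest negative control arrays (7.22) nearly met. Group means were 7.93 ± 0.16 (SD, n = 3) in mimic, 7.44 ± 0.19 in mock and 7.13 ± 0.16 in negative control arrays.

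The size of GDF15's difference depended on which control it was set against. Mimic minus negative control was 0.80 ± 0.13 on the log2 scale (limma SE), a 1.74-fold difference. Mimic minus mock was 0.48 ± 0.13, or 1.40-fold. Negative control minus mock was -0.31 ± 0.13, so that mock was 1.24-fold above the negative control. These comparisons share arrays and are not independent of each other. Leaving out any 1 array kept the first difference between 0.71 and 0.86 and the second between 0.38 and 0.58. Non-overlap of the 3 mimic with the 3 negative control arrays is found in 16.4% of all genes, with the 3 mock arrays in 12.7%, and of negative control with mock arrays in 8.1%, while 7.68% of genes have the mimic arrays outside all 6 controls on the same side; since GDF15 was chosen on these values, nothing is read from those shares.

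**Figure D1:**
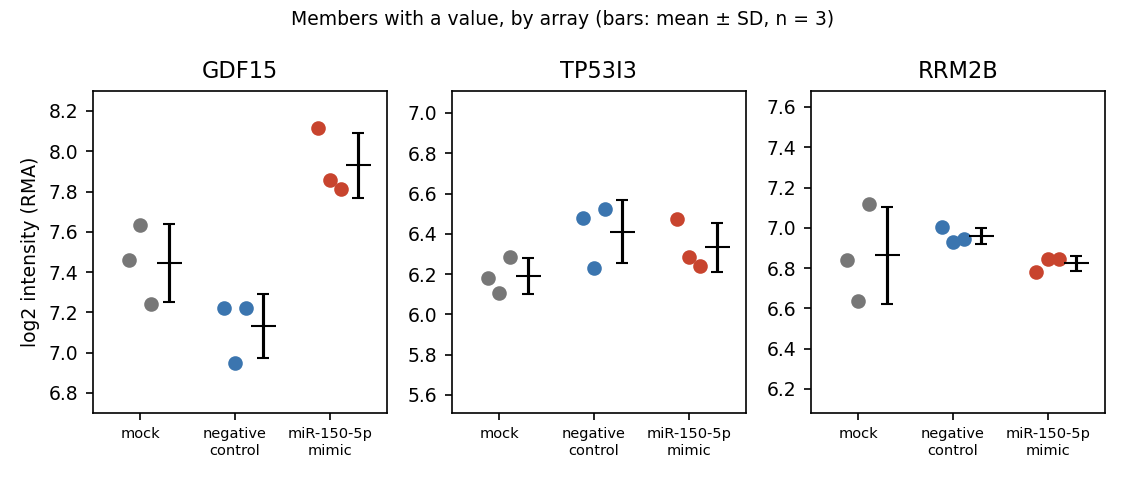
Log2 intensity (vertical axis, RMA values; each panel spans 1.6 log2 units) of GDF15, TP53I3 and RRM2B on each of the 9 arrays, by group; points are arrays and bars the mean ± SD of 3 arrays. GDF15 is at 7.81 to 8.11 in the mimic arrays against 6.95 to 7.63 in the 6 control arrays, while TP53I3 and RRM2B stay within ranges of 6.11 to 6.52 and 6.64 to 7.12.

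TP53I3, the quinone oxidoreductase also known as PIG3, was not called in any of the 3 comparisons. Its log2 intensity was 6.47, 6.29 and 6.24 in the mimic arrays, 6.48, 6.23 and 6.52 in the negative control and 6.18, 6.11 and 6.28 in mock. Mimic arrays overlapped both controls. Mimic minus negative control was -0.08 ± 0.10 (SE, n = 3 per group, 95% interval -0.30 to 0.14, adjusted p = 0.791) and mimic minus mock 0.14 ± 0.10 (-0.08 to 0.36, adjusted p = 0.654). Negative control minus mock was 0.22 ± 0.10 (-0.0035 to 0.44, adjusted p = 0.976). The difference between TP53I3's and GDF15's response was not tested.

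RRM2B, which supplies deoxynucleotides for repair outside S phase, was not called either. Its log2 intensity was 6.78, 6.84 and 6.84 in the mimic arrays, with the same deposited value in replicates 2 and 3, and 7.003, 6.93 and 6.94 in the negative control. Mock spread more widely, at 6.84, 6.64 and 7.12. The mimic arrays lay just below the negative control arrays without overlap, and inside the range of mock. Mimic minus negative control was -0.14 ± 0.11 (95% interval -0.38 to 0.11, adjusted p = 0.651). Mimic minus mock was -0.04 ± 0.11 (-0.28 to 0.20, adjusted p = 0.913) and turned to 0.08 without mock replicate 3. Of the members other than GDF15, 0 of 2 were called in any comparison, against 0.551%, 0.302% and 0% of all genes.

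Since so few members had a value, a wider list of 59 other p53 targets, in 4 groups by role, was examined, of which 34 have a named probeset. None of the 34 was called by limma in any of the 3 comparisons, with 1 at an unadjusted p under 0.05 for negative control minus mock. Against the negative control 11 were higher and 23 lower, with a median log2 difference of -0.07 (all genes 0.01, with 53.4% of them positive). Against mock 12 were higher and 22 lower, with a median of -0.03 (all genes 0.01, 53.8% positive). The negative control itself stood above mock for 22 of them and below for 11, with TRIM22 equal. The median of negative control minus mock was 0.05 (all genes 0.007, 52.8% positive). The lower standing against the negative control is to be read with that, and the directions were not tested. At an unadjusted p under 0.05 in limma's fit there were 9 against the negative control, 2 higher and 7 lower, and 6 against mock, 4 higher and 2 lower, where all genes gave 12.6% and 10.7%. Such counts in the lists below are to be read beside the same shares of all genes. The mimic arrays did not overlap the negative control arrays for 9 of the 34 (26.5%), 2 higher and 7 lower, where all genes gave 16.4%. They did not overlap the mock arrays for 5 (14.7%), 3 higher and 2 lower, where all genes gave 12.7%. These shares were not tested. The 34 are a mixed list, and the 3 that lay outside all 6 control arrays (KITLG, NINJ1 and IER5, 8.82%) were close to the 7.68% of all genes.

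**Figure D2:**
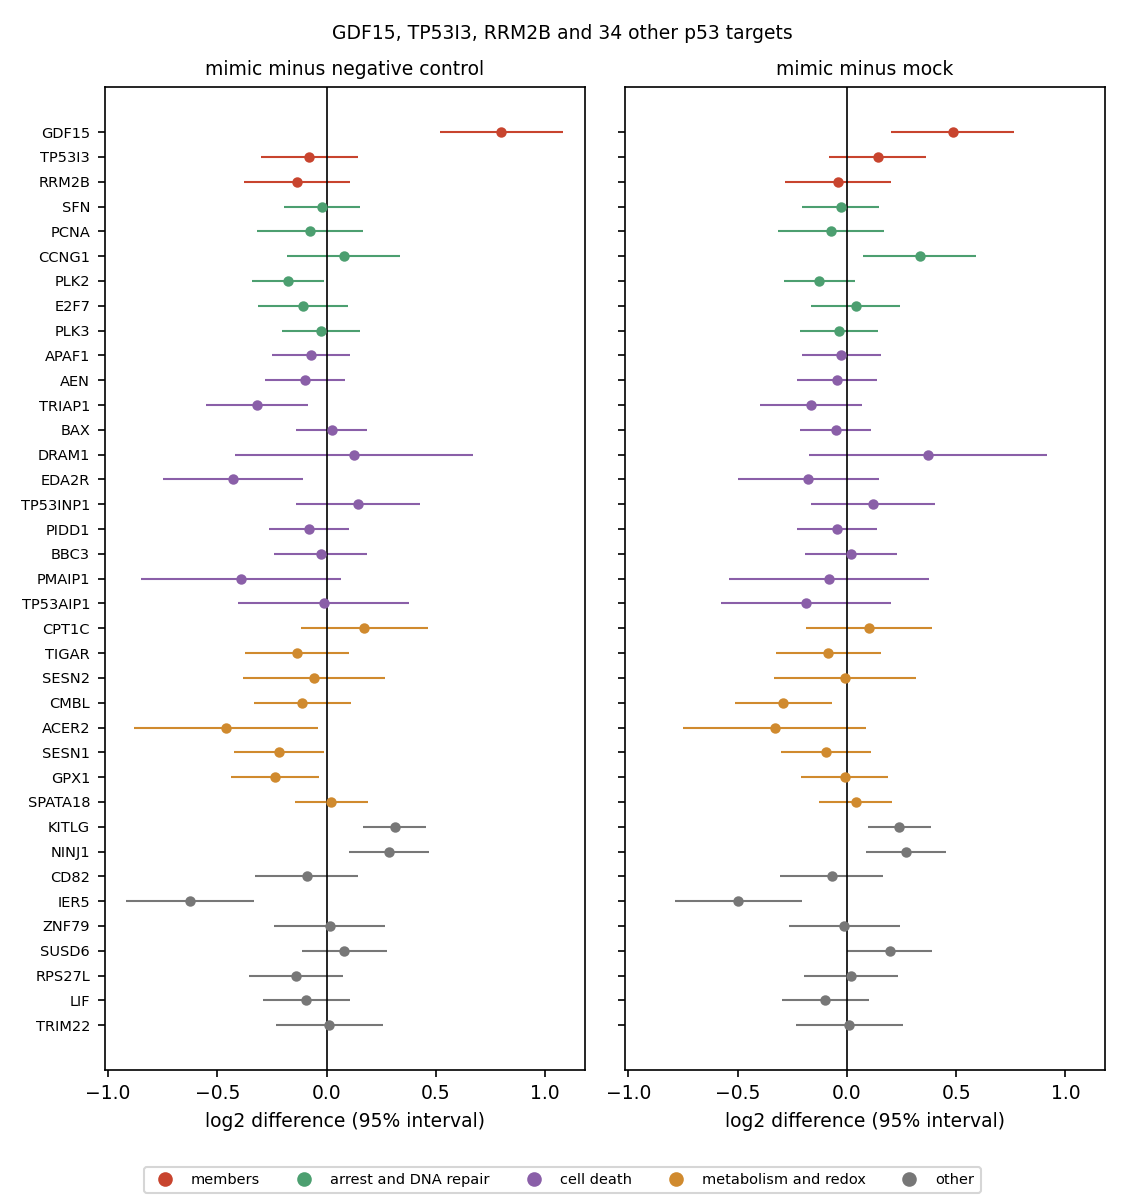
Log2 difference of mimic minus negative control (left) and mimic minus mock (right) for GDF15, TP53I3, RRM2B and 34 other p53 targets, coloured by group; points are differences of group means (3 arrays each) and lines limma's 95% intervals, on the same horizontal scale. GDF15 lies furthest to the right in both panels, at 0.80 and 0.48, while the 34 others run from -0.62 to 0.31 on the left and from -0.50 to 0.37 on the right.

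Among the 6 arrest and repair targets with a value of 11 listed, 0 were called and the medians were -0.05 against the negative control and -0.03 against mock. SFN, the 14-3-3 protein that holds cells before mitosis, differed by -0.02 ± 0.08 and -0.03 ± 0.08. PCNA, the sliding clamp of DNA polymerases, differed by -0.08 ± 0.11 and -0.07 ± 0.11. CCNG1, cyclin G1 and one of the most regular p53 targets, was at 8.06, 8.03 and 8.16 in the mimic arrays, 7.94, 8.04 and 8.04 in the negative control and 7.79, 7.48 and 7.99 in mock. It stood above mock (0.33 ± 0.12, adjusted p = 0.345) and overlapped the negative control (0.08 ± 0.12, adjusted p = 0.823). Negative control minus mock was 0.26 ± 0.12, with 1 negative control array inside the range of mock. PLK2, a polo-like kinase, lay below the negative control without overlap (-0.18 ± 0.07, adjusted p = 0.364).

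The 11 of 18 cell death targets with a value gave 0 calls and medians of -0.07 and -0.05. APAF1, the scaffold of the apoptosome, differed by -0.07 ± 0.08 against the negative control and -0.03 ± 0.08 against mock, and AEN, a nuclease, by -0.10 ± 0.08 and -0.05 ± 0.08. The BH3 and BCL2-family targets stood near 0 or below: BAX at 0.02 ± 0.07 and -0.05 ± 0.07, BBC3 (PUMA) at -0.03 ± 0.09 and 0.02 ± 0.09, and PMAIP1 (NOXA) at -0.39 ± 0.20 and -0.08 ± 0.20. The sign of BAX and BBC3 changed in some alternatives. EDA2R, a receptor of the tumour necrosis factor family, was at 6.27, 6.34 and 6.63 in the mimic arrays, 6.92, 6.95 and 6.65 in the negative control and 6.52, 6.38 and 6.86 in mock, which is below the negative control (-0.43 ± 0.14, adjusted p = 0.259) and overlapping mock (-0.18 ± 0.14, adjusted p = 0.698). TRIAP1, a small inhibitor of apoptosis, showed the same order, at -0.32 ± 0.10 (adjusted p = 0.254) and -0.16 ± 0.10.

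Of the metabolism and redox targets 8 of 13 had a value, 0 were called and the medians were -0.12 and -0.05. CPT1C, a carnitine palmitoyltransferase, differed by 0.17 ± 0.13 against the negative control and 0.10 ± 0.13 against mock. TIGAR, which lowers flux through glycolysis, differed by -0.14 ± 0.11 and -0.08 ± 0.11. CMBL lay below mock without overlap (-0.29 ± 0.10, adjusted p = 0.337) and overlapped the negative control (-0.11 ± 0.10). In this group, 6 of 8 genes had a negative difference in each of the mimic comparisons. Against the negative control 3 had an unadjusted p under 0.05 in limma's fit, all lower, where all genes gave 12.6%. These were ACER2 (-0.46 ± 0.19), GPX1 (-0.24 ± 0.09, at a low level) and SESN1 (-0.22 ± 0.09). TIGAR and GPX1 lay below the negative control without overlap (25.0%, where all genes gave 16.4%). Against mock 1 had such a p, CMBL, where all genes gave 10.7%.

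The last group, targets with other roles, had 9 of 17 with a value and held the 3 genes outside all 6 control arrays. KITLG, the ligand of the KIT receptor, was at 9.91, 9.86 and 9.96 in the mimic arrays against 9.57 to 9.62 in the negative control and 9.61 to 9.70 in mock. It was higher by 0.31 ± 0.06 (adjusted p = 0.0681) and 0.24 ± 0.06 (adjusted p = 0.201). NINJ1, a membrane protein of cell rupture and adhesion, was at 8.74, 8.50 and 8.54 against 8.21 to 8.36 in the 6 controls, with differences of 0.29 ± 0.08 (adjusted p = 0.189) and 0.27 ± 0.08 (adjusted p = 0.260). IER5, an immediate early response protein, was at 6.30, 6.70 and 6.37 in the mimic arrays against 6.97 to 7.28 in the negative control and 6.82 to 7.12 in mock. It lay below all 6 controls, by differences of -0.62 ± 0.13 (adjusted p = 0.0713) and -0.50 ± 0.13 (adjusted p = 0.200). KITLG passed against the negative control in 3 of 18 alternatives (adjusted p = 0.0221, 0.0207 and 0.0393) and IER5 in 1 (0.0255), where only genes above the median level were tested. The medians of the group were 0.01 and 0.01.

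Of a list of 15 genes of the pathway upstream of these targets 11 had a value, and 0 were called in any comparison (medians 0.06 and 0.06 for the mimic), with 2 and 2 at an unadjusted p under 0.05 in limma's fit. CREBBP, an acetylase and coactivator of p53, differed by 0.17 ± 0.09 against the negative control and 0.22 ± 0.09 against mock. USP7, which removes ubiquitin from p53 and MDM2, differed by 0.07 ± 0.07 and 0.02 ± 0.07. HIPK2, a kinase that phosphorylates p53 after damage, was at 9.37, 9.30 and 9.34 in the mimic arrays, 8.89, 9.03 and 8.97 in the negative control and 9.09, 9.12 and 8.94 in mock. It lay above all 6 controls, by 0.37 ± 0.07 (adjusted p = 0.0594) and 0.29 ± 0.07 (adjusted p = 0.194), and passed against the negative control in 4 of 18 alternatives. CDKN2A, the p16 and ARF gene, was at a low level (mean 4.53). It was lower than in the negative control (-0.48 ± 0.13, adjusted p = 0.173) and overlapped mock (-0.20 ± 0.13, adjusted p = 0.631). Its negative control arrays lay above mock without overlap (0.28 ± 0.13), with which the first difference is to be read. Of 14 listed relatives of the members 4 had a value and 0 were called by limma, with 1 and 1 at an unadjusted p under 0.05. MDM4, the partner of MDM2, differed by 0.11 ± 0.11 and 0.21 ± 0.11. RRM2, the S-phase counterpart of RRM2B, was at 8.52, 8.73 and 8.87 in the mimic arrays against 8.94 to 9.12 in the 6 controls (-0.37 ± 0.09, adjusted p = 0.139, and -0.29 ± 0.09, adjusted p = 0.321).

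The integrated stress response, the other known route to GDF15, was represented by 10 of 15 listed genes, with 0 called by limma and 1 and 2 at an unadjusted p under 0.05. Medians were -0.09 against the negative control and -0.07 against mock, and 6 and 7 of the 10 had negative differences. ATF4 was at 8.06, 8.06 and 8.16 in the mimic arrays and at 8.02 to 8.21 in the controls (0.05 ± 0.07, adjusted p = 0.822, and -0.02 ± 0.07, adjusted p = 0.943). DDIT3, which encodes CHOP, differed by -0.20 ± 0.12 and -0.09 ± 0.12 at a low level. ASNS was at 5.71, 5.87 and 6.29 in the mimic arrays, 6.44, 7.06 and 6.46 in the negative control and 6.59, 6.44 and 6.47 in mock, below all 6 controls (-0.70 ± 0.18, adjusted p = 0.154, and -0.54 ± 0.18, adjusted p = 0.335). The kinases EIF2AK1 and EIF2AK2, which sense heme loss and double-stranded RNA, differed by 0.16 ± 0.07 and 0.05 ± 0.09 against the negative control and by 0.20 ± 0.07 and 0.12 ± 0.09 against mock. EIF2AK1 lay above all 6 controls, although its lowest mimic array and highest control array were almost equal.

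GDF15 and the lists were also set side by side on each array. GDF15 lay 0.61, 0.36 and 0.31 above its mean over 9 arrays in mimic replicates 1, 2 and 3. The median deviation of the 34 other p53 targets on those arrays was -0.05, -0.05 and -0.0024, and that of the 10 stress response genes -0.0148, 0.0365 and -0.0166. In the negative control GDF15 deviated by -0.28, -0.55 and -0.28 and the 34 targets by 0.04, 0.02 and 0.02. In mock GDF15 deviated by -0.04, 0.13 and -0.26 and the 34 targets by -0.01, -0.02 and 0.02. A list's median moves less than a single gene, so its size cannot be set beside that of GDF15, and single targets moved more than their list: DRAM1, an autophagy regulator, was at 7.49, 6.53 and 6.51 in the mimic arrays against a mean of 6.68 over the 9 arrays.

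**Figure D3:**
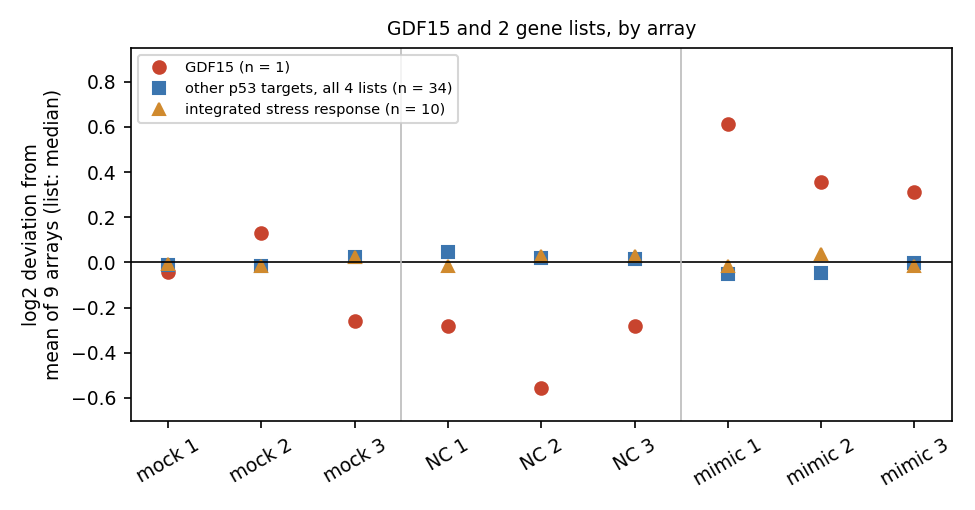
Deviation from the mean over the 9 arrays (vertical axis, log2 units) for GDF15 (circles) and for the median gene of 34 other p53 targets (squares) and of 10 integrated stress response genes (triangles) on each array; NC is the negative control. GDF15 is above 0 on all 3 mimic arrays. The median p53 target is slightly below 0 on mimic replicates 1 and 2, almost at 0 on replicate 3 (-0.0024), and also below 0 on mock replicates 1 and 2. The median stress response gene is above 0 on mimic replicate 2. A median of many genes moves less than 1 gene, so the sizes are not comparable.

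Genes of GDF15's own family and its receptor were examined next. Of 25 other ligands of the TGF-beta family 19 had a value and 0 were called by limma, 1 and 2 having an unadjusted p under 0.05, with medians of -0.03 and 0.02. GDF1 differed by -0.06 ± 0.11 and 0.05 ± 0.11 and BMP4 by -0.17 ± 0.10 and -0.10 ± 0.10. BMP7 and GDF5 lay outside all 6 controls, both lower, which is 10.5% of the 19 and close to the 7.68% of all genes. BMP7 was at 5.35, 5.49 and 5.16 in the mimic arrays against 5.57 to 5.93 (-0.29 ± 0.11 and -0.37 ± 0.11, adjusted p = 0.344 and 0.267). GDF5 differed by -0.15 ± 0.08 and -0.07 ± 0.08. The receptor gene GFRAL, known from the hindbrain, was at a low level of 2.51 to 3.26 on the 9 arrays and was not called (-0.25 ± 0.14 and -0.03 ± 0.14).

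RET, the signalling partner of GFRAL and a known estrogen-responsive gene, was at 5.44, 5.17 and 5.45 in the mimic arrays, 5.14, 4.99 and 4.68 in the negative control and 5.08, 5.14 and 4.96 in mock. It was above all 6 controls and not called (0.41 ± 0.12, adjusted p = 0.216, and 0.29 ± 0.12, adjusted p = 0.447). GFRA1, the RET co-receptor of another ligand, overlapped the negative control (-0.06 ± 0.10) and was above mock (0.32 ± 0.10, adjusted p = 0.294). Of the 6 receptor genes 0 were called by limma, with 1 and 2 at an unadjusted p under 0.05.

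Downstream of members without a value, the death receptor pathway of FAS and the genes lowered through p21 were described. Of 9 FAS pathway genes 3 had a value and 0 were called by limma, with 0 at an unadjusted p under 0.05: the adaptor FADD differed by 0.13 ± 0.08 and 0.12 ± 0.08, and CFLAR, which blocks caspase 8, by -0.10 ± 0.09 and 0.07 ± 0.09. All 20 cell cycle genes that p21 and the DREAM repressor lower in a p53 response had a value, and 0 were called by limma. At an unadjusted p under 0.05 in limma's fit there were 4 and 2, where all genes gave 12.6% and 10.7%. Against the negative control 15 were lower and 5 higher, with a median of -0.10, and against mock 12 were lower and 8 higher, with a median of -0.05. Negative control minus mock had 17 of 20 higher, with a median of 0.06 and 5 without overlap, all higher, where all genes gave 8.1%. The mimic arrays did not overlap the negative control arrays for 6 of the 20, all lower, where all genes gave 16.4%. They did not overlap the mock arrays for 4, 2 higher and 2 lower, where all genes gave 12.7%. These shares were not tested. The list's median deviation was -0.16, -0.0067 and 0.02 in mimic replicates 1, 2 and 3, lowest in replicate 1, against -0.03, -0.09 and 0.05 in mock and 0.03, 0.07 and 0.08 in the negative control. The brightest probesets, MYBL2 and TOP2A, differed by -0.02 ± 0.06 and -0.03 ± 0.07 against the negative control. CDC25C, a phosphatase that opens mitosis, was at 6.23, 6.52 and 6.40 in the mimic arrays, 6.90, 6.83 and 6.74 in the negative control and 6.62, 6.48 and 6.63 in mock (-0.44 ± 0.09, adjusted p = 0.0681, and -0.19 ± 0.09, adjusted p = 0.499).

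The genes whose pattern was most like GDF15's over the 9 arrays, among those above the median level, were LONRF2, HMBOX1, NSMF, OPN3 and LTBP1, with Pearson r of 0.963, 0.956, 0.955, 0.955 and 0.951. They were picked as the extremes of 14883 genes and share the arrays and the group structure, so r is a description. LONRF2, a ubiquitin ligase, was at 8.60, 8.41 and 8.57 in the mimic arrays, 7.99, 7.90 and 8.06 in the negative control and 8.30, 8.28 and 8.08 in mock. Like GDF15 it was highest in mimic and lowest in negative control arrays. LTBP1, which holds latent TGF-beta in the matrix, differed by 0.48 ± 0.09 against the negative control and 0.29 ± 0.09 against mock, and OPN3, an opsin, by 0.73 ± 0.12 and 0.53 ± 0.12. LONRF2 and OPN3 were called by limma against the negative control (adjusted p = 0.0379 and 0.0416), each in 7 of 18 alternatives, where 0.551% of all genes were called. The 5 genes were picked for likeness to GDF15, which was chosen on that same difference. Calls among them follow in part from that choice, so they too are a description. HMBOX1, a homeobox protein, differed by 0.50 ± 0.11 and 0.30 ± 0.11 and NSMF by 0.65 ± 0.16 and 0.41 ± 0.16. On deviations from the group means, which leave the group differences out, r with GDF15 was 0.75, 0.79, 0.90, 0.77 and 0.69 for the 5 genes in the order first given. The r over the 9 arrays, by which the 5 were picked, includes these deviations. High values here therefore follow in part from the choice, and nothing is read from them.

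**Figure D4:**
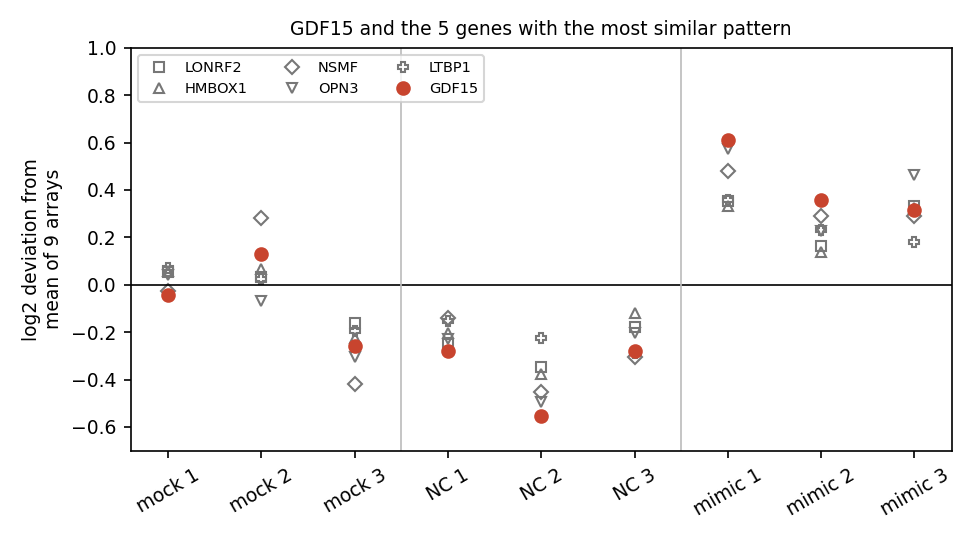
Deviation from the mean over the 9 arrays (vertical axis, log2 units) for GDF15 (filled circles) and the 5 genes with the highest Pearson r to it (open symbols), by array; NC is the negative control. Mock replicate 3 lies below mock replicates 1 and 2 for GDF15 (-0.26 against -0.04 and 0.13) and for the 5 others.

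Correlations of the p53 targets with GDF15 over the 9 arrays had both signs. Pearson r was -0.02 for TP53I3 and -0.61 for RRM2B. Over the 34 other targets the median r was -0.25, with 13 positive, against a median of 0.04 over all other genes. GDF15 was chosen on its mimic minus negative control difference, which also shapes its pattern over the 9 arrays. Each r over the 9 arrays therefore in part repeats the target's own difference. It is a description, and nothing further is read from its sign. The highest was KITLG at 0.85 and the lowest TRIAP1 at -0.89, with NINJ1 at 0.83 and EDA2R at -0.87. KITLG's r within groups was -0.24, so that its likeness to GDF15 lay in the group means. Within groups, the r of the 34 targets was highest for SESN2 (0.88, and 0.22 over the 9 arrays) and CPT1C (0.70), and lowest for EDA2R (-0.81), TRIAP1 (-0.76), PCNA (-0.73) and ZNF79 (-0.72).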

How the data were processed

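The deposited table gives log2 values of 53617 probesets on 9 arrays. Per the submitters' processing notes the authors made these deposited log2 values with RMA. Neither its version nor a build is given in the sources used here. The platform's annotation table names 16098 probesets and leaves 37519 unnamed here. Where a gene had several (779 genes), its probeset of highest mean was taken.

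The model was fitted with limma 3.58.1 in R 4.3.3 and had a mean for each group, all 9 arrays sharing the spread, with eBayes moderation and two-sided p-values adjusted by Benjamini-Hochberg over 14884 genes in each comparison (threshold 0.05). The fit was tested on simulated data. With 3 arrays against 3, an exact permutation test cannot go below p = 0.1, so none was run. The table gives no detection call, and the number of arrays limits precision.

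The members and gene lists were chosen with earlier results of these data known. Named were the members, called genes, the 2 genes of each list with the highest mean, and the 5 genes most like GDF15. All other named genes were chosen after their values were seen, most for lying outside a control group (PECAM1 and LYZ among the markers). ZR-75-1 marker lists were set beside them. Promoter windows come from RefSeq (GRCh38.p14) and were matched by symbol; the TATA and GC box searches were added after the data were seen.

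The alternatives left out each array, fitted only 2 groups, added the replicate number as a block, quantile-normalized or median-centred the arrays, tested only genes above the median level or all probesets, used trend and robust variances or array weights, or averaged a gene's probesets.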

Additional observations from a re-analysis of the deposited data

How the results depend on the processing

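The replicate numbers did not pair the arrays: deviations of same-numbered arrays correlated at -0.06 to 0.13 and of other pairs at -0.18 to 0.16. GDF15's differences kept their sign in all 18 alternatives. They were 0.71 to 0.86 (mimic minus negative control), 0.38 to 0.58 (mimic minus mock) and -0.41 to -0.22 (negative control minus mock). Many of these settings change only the spread or the genes tested and leave a difference as it was. The ranges are those of leaving out 1 array. Since GDF15 was chosen on its difference, nothing is read from the kept signs. TP53I3 kept its signs and was called in none of the alternatives.

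For mimic minus negative control the number of genes called was 7 to 121 when 1 array was left out (7 without mimic replicate 1), 8 with only the 6 arrays of both groups, 16 with the replicate block, 263 with only genes above the median, 5 with all probesets, 169 with trend and robust variances and 268 with array weights. For mimic minus mock it was 1 to 10 with 1 array left out, 1 with the 6 arrays, 3 with the replicate block, 102 above the median and 1 with all probesets. The cause was not tested. Of the other p53 targets 2 were called against the negative control above the median, 1 with trend and robust variances and 1 with array weights.

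Differences near 0 changed sign with 1 array left out. Mimic minus mock then gave -0.154 to 0.0846 for RRM2B, -0.0772 to 0.0125 for AEN, -0.0741 to 0.0497 for APAF1, -0.0485 to 0.0318 for ATF4, -0.0404 to 0.204 for CPT1C, -0.0712 to 0.108 for GDF1 and -0.0630 to 0.0376 for GFRAL. The same comparison gave -0.0178 to 0.0312 for MYBL2, -0.156 to 0.0259 for PCNA, -0.267 to 0.105 for PMAIP1, -0.0863 to 0.0239 for SFN, -0.204 to 0.0291 for TIGAR, -0.0589 to 0.0212 for TOP2A and -0.0103 to 0.0503 for USP7. Mimic minus negative control gave -0.0206 to 0.0544 for BAX, -0.0929 to 0.0869 for BBC3, -0.118 to 0.00698 for GDF1, -0.0450 to 0.00403 for MYBL2, -0.0566 to 0.0306 for SFN and -0.0717 to 0.00834 for TOP2A. Negative control minus mock gave -0.0191 to 0.220 for RRM2B. Against mock, array weights gave 0.00995 for RRM2B, 0.0226 for APAF1 and -0.0156 for GDF1, and quantile normalization -0.00178 for BBC3, -0.0126 for MYBL2 and -0.00619 for USP7. Median centring gave -0.00637 for MYBL2 against mock and -0.00551 for BAX against the negative control, where array weights gave 0.0296 for BBC3.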
